A study of Mus musculus with 2 samples.

Results

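Etv1, Etv4, Etv5, Ehf, Elf3, Elf5 and Spdef are the ETS transcription factors named for epithelium that were followed here across the cell types of the mouse parotid gland (PG). The set is defined by gene symbol, and the 7 symbols were found once each among the 48825 genes listed for both libraries. PG of C3H female mice were dissociated and profiled by droplet single-cell RNA-seq in which unique molecular identifiers (UMIs) count captured mRNA molecules. The control library held cells of 2 pooled, unirradiated mice. The IR library held cells of 2 pooled mice whose head and neck received 6 Gy per day on 5 days, 30 Gy in all, at 6 to 10 weeks of age, with glands taken 10 months later. Control and irradiated mice were about 1 year old when the cells were taken. There was 1 library per condition, so no difference between control and IR has a replicate check, no p-value is given, and every interval is a 95% interval for counting error only.

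ETS factors share a DNA-binding domain that recognises a GGAA core, and many of them act downstream of growth factor signalling. Etv1, Etv4 and Etv5 form the PEA3 group, which in branching epithelia is induced by FGF receptors through ERK and is removed by the COP1 ubiquitin ligase. Ehf, Elf3 and Elf5 form the epithelium-specific ESE group, and Spdef is the only member of the PDEF group, known for its part in the maturation of mucous secretory cells. In the parotid gland, acinar cells make the watery, protein-rich saliva, intercalated ducts (ID) lead from the acini, and striated ducts (SD) modify the ion content of saliva.

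The members lie on separate chromosomes apart from Ehf and Elf5. In GENCODE M21 on GRCm38, Etv1 spans chr12:38779380-38870484 on the plus strand, Etv4 chr11:101769742-101785371 and Etv5 chr16:22381309-22439719 on the minus strand. Elf3 spans chr1:135253575-135258568 and Spdef chr17:27714352-27728955, both on the minus strand. Ehf (chr2:103263433-103303278, minus strand) and Elf5 (chr2:103411688-103450989, plus strand) are neighbours, 108409 bases apart with 3 annotated genes between them, and point away from each other. Of the 7 genes, Elf3 alone is overlapped on an exon by another annotated gene, the antisense gene Gm26642, which had 0 UMIs in both libraries.

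To show the sequence next to the start of members with a different distribution between cell types, the 250 bases before the RefSeq start (GRCm38.p6) are given 5′ to 3′ on the strand of the gene. Etv1 and Elf3 were more than 2-fold higher in Krt8-high secretory than in acinar cells on both CPM scales used below, whereas Elf5 and Spdef differed less. Capitals mark GGAA or its reverse complement TTCC, the core letters of an ETS site.
Etv1, chr12:38779832-38780081, plus strand: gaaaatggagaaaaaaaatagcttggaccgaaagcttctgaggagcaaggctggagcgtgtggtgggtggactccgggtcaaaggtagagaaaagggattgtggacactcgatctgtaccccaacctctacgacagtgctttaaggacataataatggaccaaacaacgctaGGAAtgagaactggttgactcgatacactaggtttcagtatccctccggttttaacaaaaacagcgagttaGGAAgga
Elf3, chr1:135258473-135258722, minus strand: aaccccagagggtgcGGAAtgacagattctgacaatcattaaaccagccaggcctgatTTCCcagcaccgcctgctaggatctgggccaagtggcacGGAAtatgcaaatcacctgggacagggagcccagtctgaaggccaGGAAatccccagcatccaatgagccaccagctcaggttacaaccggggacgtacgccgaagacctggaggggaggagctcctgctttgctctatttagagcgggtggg
Elf5, chr2:103411848-103412097, plus strand: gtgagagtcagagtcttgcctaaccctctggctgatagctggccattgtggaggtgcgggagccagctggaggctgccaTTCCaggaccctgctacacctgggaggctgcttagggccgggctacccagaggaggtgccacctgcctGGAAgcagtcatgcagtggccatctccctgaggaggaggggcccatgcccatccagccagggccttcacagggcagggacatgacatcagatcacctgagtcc
Spdef, chr17:27728952-27729201, minus strand: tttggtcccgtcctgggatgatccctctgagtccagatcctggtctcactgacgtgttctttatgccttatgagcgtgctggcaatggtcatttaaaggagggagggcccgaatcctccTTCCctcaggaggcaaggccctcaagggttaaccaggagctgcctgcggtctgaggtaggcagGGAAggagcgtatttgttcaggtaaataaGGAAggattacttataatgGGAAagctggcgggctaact
The windows of Etv1 and Elf5 held 2 matches each and those of Elf3 and Spdef 4 each. GGAA or TTCC stood in 93.4% of the 32851 promoter windows of this length, with a median of 3 matches, so a match does not set these 4 windows apart. The longer ETS letters CCGGAAGT, searched on both strands and containing the GGAA core, stood in 2.88% of all windows and in 0 of these 4. For Etv1 and Elf5, 2 starts were listed, and the first was used. The windows of these 2 genes lie inside the gene spans given above, and those of Elf3 and Spdef overlap the 5′ end of their spans. The windows are thus upstream of the start used and not of the whole annotated gene.

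Of 5550 control and 7793 IR barcodes, 3378 and 5286 cells passed the filters of at least 200 genes and at most 5% mitochondrial UMIs, with median depths of 2907.5 and 2461.5 UMIs. A list of 18 secretory genes took 39% and 27.5% of the UMIs of these cells. Cells were grouped without any of the 7 members among the grouping genes, and groups were named from marker genes. Beside CPM (counts per 1000000 UMIs) over all genes, levels are therefore also given as CPM with these secretory genes, mitochondrial genes, haemoglobin genes and Gm42418 left out, called CPM without abundant genes. The libraries shared 12 barcodes, of which 3 were among kept cells. The doublet caller marked 1.01% of control cells and 0.0568% of IR cells, the second of which shows that it had not worked, so the cells with the highest 6% of doublet scores were left out as an alternative.

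The epithelial classes comprised acinar cells (379 control and 380 IR), Krt8-high secretory cells (250 and 239), ID cells (128 and 149) and SD cells (87 and 79). The Krt8-high secretory cells were named by markers that the study reported for its Etv1+ cells from these same libraries. Etv1 itself was left out of the grouping genes and of these markers. A high Etv1 level in this class is therefore not independent of how the class was named. The 9 markers, which include Krt8, Krt18 and Erbb3, summed to 1470 and 2133 CPM in it, against 782 and 1021 CPM in acinar cells. ID cells reached 2707 and 4254 CPM for the same list, so its sum did not set this class apart from ID. Over all genes the median log2 ratio of this class over acinar cells was 0.78 in control and 0.66 in IR. A sum above that of acinar cells was thus not particular to these markers. Krt8 itself was at 386 and 558 CPM in Krt8-high secretory cells, below the 680 and 1403 CPM of ID and the 1161 and 661 CPM of SD. In acinar cells Krt8 was at 202 and 327 CPM in cells under 10000 UMIs and at 153 and 222 CPM in deeper ones. The name of the class is thus relative to acinar cells only. The 10 acinar markers, which include Amy1 and Bpifa2, summed to 555294 and 521319 CPM in Krt8-high secretory cells, against 640030 and 615565 CPM in acinar cells. A group of 18 control and 23 IR cells was named MEC (myoepithelial) from 8 markers, but also passed for 7 endothelial markers and had median depths of 830 and 748 UMIs.

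By share of UMIs, the name of the list held for 5 of the 7 genes. Over both libraries, acinar, Krt8-high secretory, ID and SD cells held 93.5% of the 2749 Etv1 UMIs, 93.1% of the 608 Elf3 UMIs, 92.5% of the 201 Spdef UMIs, 89.5% of the 1220 Elf5 UMIs and 84.1% of the 1427 Ehf UMIs. Of all genes together, these 4 classes held 10966643 of 19068309 control and 8235398 of 20348028 IR UMIs. In CPM, Ehf was also high in a part of the dendritic cells, at 254 and 142 against 117 and 120 in ID. For Etv4 and Etv5 few or no UMIs came from these 4 classes. Etv4 had 0 UMIs in the control library and 5 in the IR library, too few to place it, with 0 in the 4 classes and 1 in MEC. Etv5 had 45 control and 31 IR UMIs, of which 1 was in the 4 classes.

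The order of the classes differed between members. In the class sums Etv1 was highest in Krt8-high secretory cells. In the same sums Ehf, Elf3 and Elf5 were higher in ID than in Krt8-high secretory and acinar cells, and Spdef was low throughout.

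**Figure D1:**
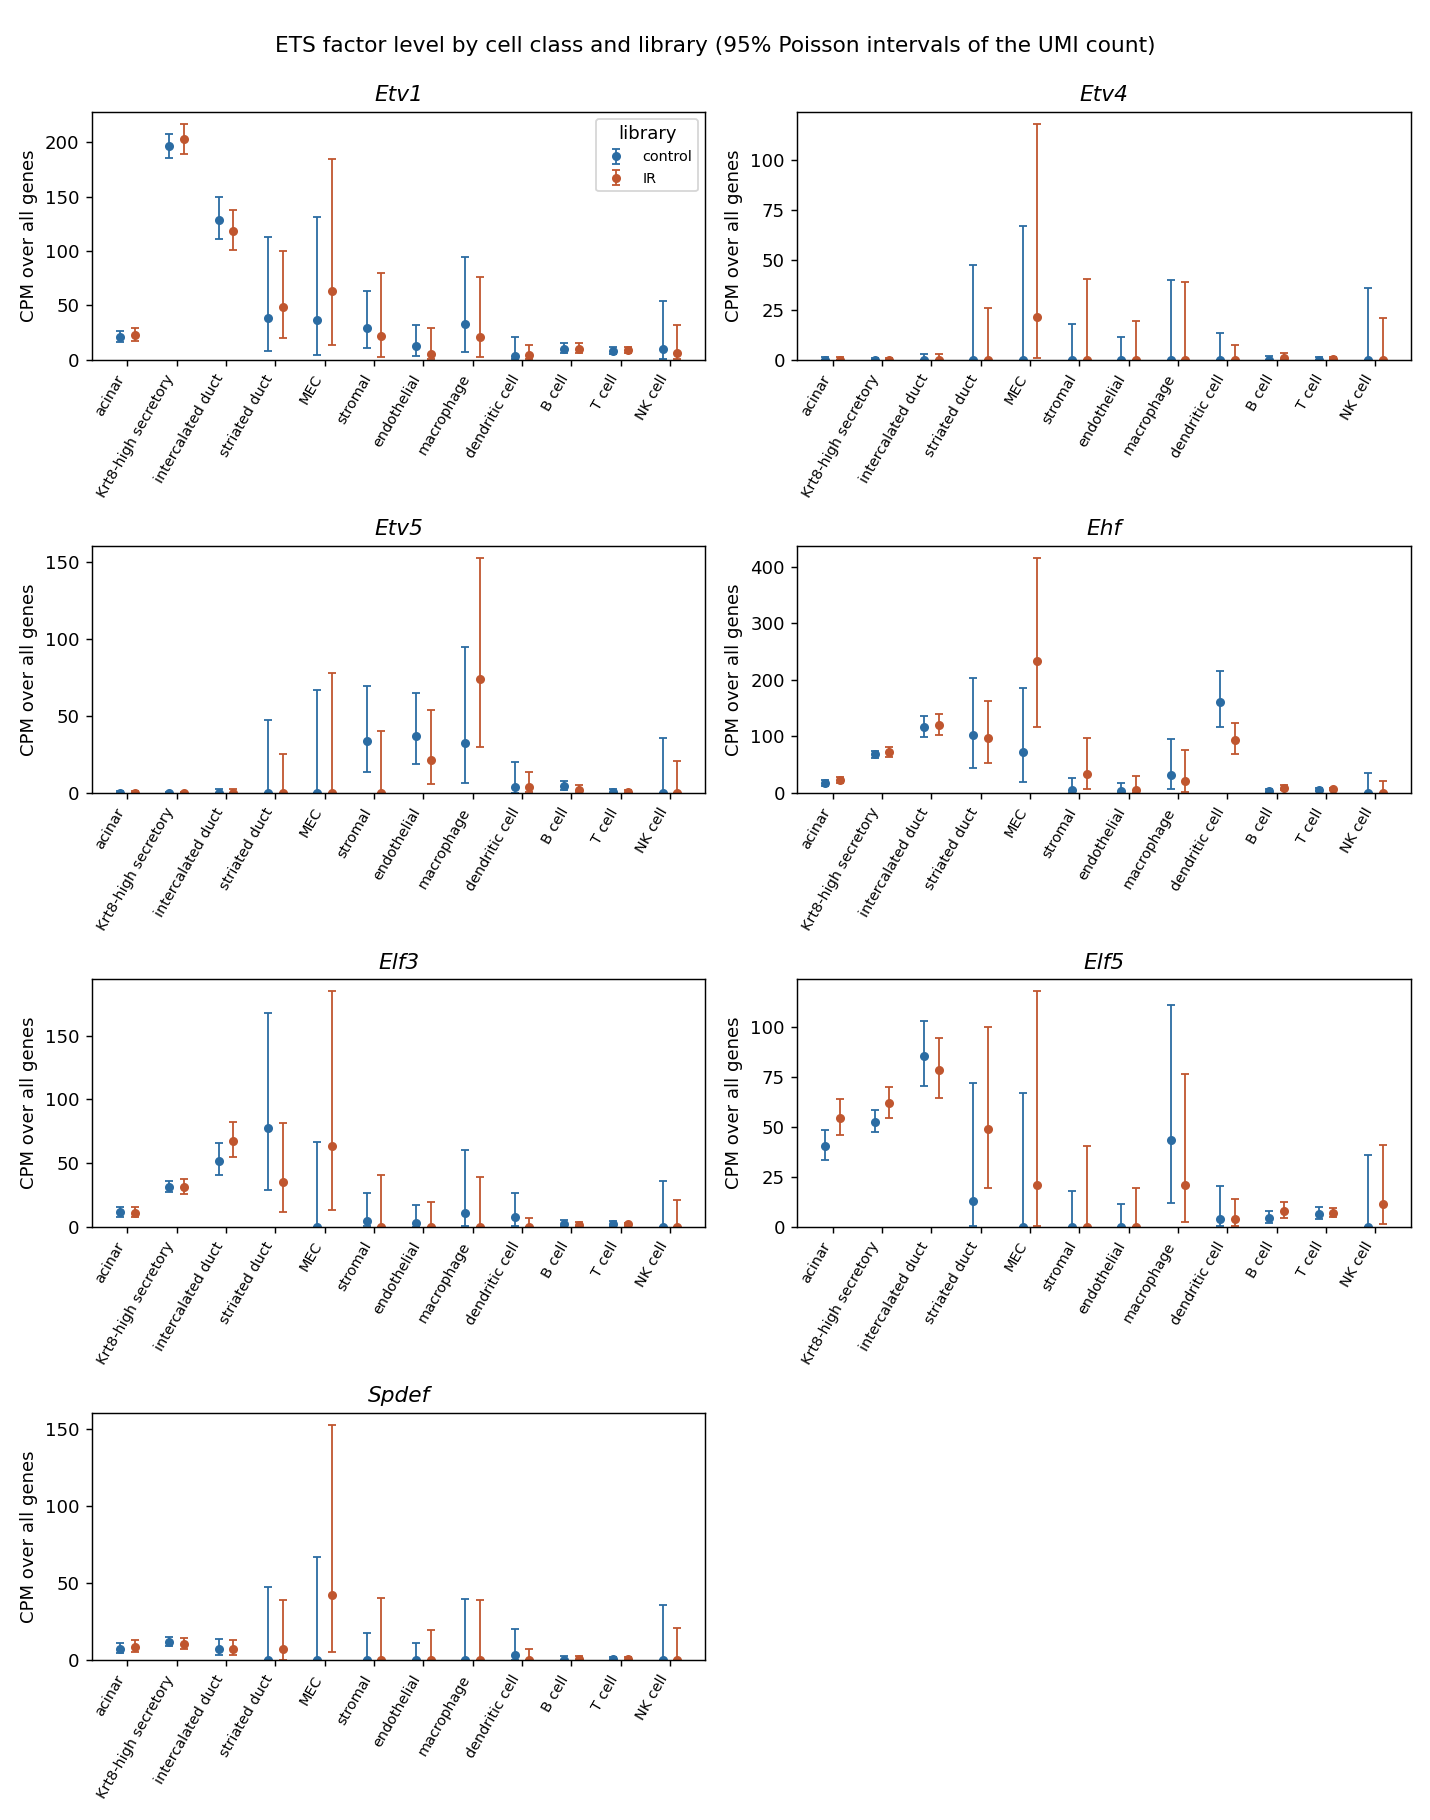
CPM over all genes of each of the 7 factors (one panel each, own scale) in 12 cell classes, control in blue and IR in orange, with 95% Poisson intervals of the UMI count and 1 library per condition. Etv1 stands at 197 and 203 CPM in Krt8-high secretory cells, Etv4 has 0 UMIs in the 4 main epithelial classes, and Ehf is also high in dendritic cells.

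Etv1, a PEA3 factor and the namesake of a secretory population in the study, had 1300 UMIs in control and 796 in IR Krt8-high secretory cells, which is 197 CPM (186 to 208) and 203 CPM (189 to 217). In ID cells Etv1 was at 129 CPM (111 to 150) in control and 118 CPM (101 to 138) in IR. In acinar cells it was at 20.7 CPM (15.8 to 26.5) and 22.3 CPM (17.1 to 28.7), from 61 UMIs in each library. The intervals of these 3 classes did not overlap in either library, whereas those of control and IR overlapped within each class. In SD cells Etv1 rested on 3 and 7 UMIs, 38.7 CPM (7.98 to 113) and 48.7 CPM (19.6 to 100), and its place relative to acinar cells was not resolved.

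B cells, which are not known to express Etv1, served as the level given by free RNA in droplets. Etv1 stood at 9.9 CPM (6.27 to 14.9) and 10.1 CPM (6.27 to 15.5) in B cells, and at 7.81 and 8.53 CPM in T cells. The acinar level was above the B cell level in each library, with no overlap of the intervals over all acinar cells. In acinar cells of at least 10000 UMIs, which held 61.2% and 51.5% of the class UMIs, Etv1 was at 11.1 CPM (6.76 to 17.1) and 15.6 CPM (9.79 to 23.7), and these intervals overlapped those of B cells. As counts per cell, these acinar cells held 20 Etv1 UMIs in 100 control and 22 in 82 IR cells. B cells, which were shallower, held 23 in 838 and 21 in 832 cells. The overlap thus holds for CPM and not for counts per cell, and the part of free RNA in either was not tested. Per 1000000 UMIs of Bpifa2, an abundant acinar secretory gene, Etv1 had 258 and 256 UMIs in B cells, 46.9 and 46.1 in acinar cells, 532 and 509 in Krt8-high secretory cells and 510 and 422 in ID cells. In both libraries this ratio was higher in B cells than in acinar cells. The same held for Elf5, at 112 and 195 in B cells and 91.4 and 113 in acinar cells. Bpifa2 was at 447578 and 469442 CPM in acinar cells under 10000 UMIs, 370307 and 397548 CPM in Krt8-high secretory and 253013 and 280433 CPM in ID cells. In B cells it was at 38399 and 39561 CPM. The part of a cell's own Bpifa2 in the ratio was not tested. The ratio therefore cannot place the Etv1 level of these 3 epithelial classes relative to free RNA.

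Between cell types, 3 of the 5 members with enough UMIs passed 2-fold in Krt8-high secretory over acinar cells of the control library, and 3 of 5 did so in the IR library. The same was true of 42.5% and 37.9% of all genes tested, with a median log2 ratio over all genes of 0.78 and 0.66, so passing 2-fold was common. Etv1 was 9.53-fold higher (7.37 to 12.5) in control and 9.08-fold higher (6.99 to 12) in IR, above the ratio of 94.7% and 96.7% of genes. Ehf, an ESE factor, was 3.82-fold (2.87 to 5.18) and 3.24-fold (2.45 to 4.34) higher. Elf3, also of the ESE group, was 2.78-fold (1.92 to 4.14) and 2.83-fold (1.88 to 4.37) higher. Etv1, Ehf and Elf3 were the 3 members past 2-fold in both libraries, on either CPM scale, where without abundant genes 33.9% and 28.7% of all genes passed. With TMM scaling (trimmed mean of M-values) the control ratio of Elf3 was 1.82, short of 2-fold, and that of Etv1 was 6.25.

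Elf5, the ESE factor known from mammary alveolar cells, differed little between the secretory classes. It was at 40.3 CPM (33.4 to 48.2) in control and 54.5 CPM (46.1 to 64) in IR acinar cells, and at 52.5 CPM (47.2 to 58.4) and 61.8 CPM (54.3 to 70.1) in Krt8-high secretory cells. The ratio of Krt8-high secretory over acinar cells was 1.3 (1.06 to 1.62) in control and 1.13 (0.921 to 1.4) in IR over all genes, 1.06 and 0.918 without abundant genes, and 0.855 in control with TMM, so its direction depended on the scale. Spdef had 79 control and 41 IR UMIs in Krt8-high secretory cells, 12 CPM (9.47 to 14.9) and 10.4 CPM (7.49 to 14.2), against 7.11 CPM (4.4 to 10.9) and 8.78 CPM (5.62 to 13.1) in acinar cells. The Spdef ratio was 1.68 (1.03 to 2.87) in control and 1.19 (0.701 to 2.06) in IR, and 0.961 in IR without abundant genes.

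In the class sums of acinar, Krt8-high secretory and ID cells, the ESE factors were highest in ID. Ehf was at 117 CPM (99.5 to 137) in control and 120 CPM (103 to 139) in IR ID cells, against 68.6 CPM (62.4 to 75.2) and 72.3 CPM (64.1 to 81.2) in Krt8-high secretory cells and 18 CPM (13.4 to 23.5) and 22.3 CPM (17.1 to 28.7) in acinar cells. Elf3 was at 51.8 CPM (40.3 to 65.6) and 67.3 CPM (54.5 to 82.2) in ID, 31 CPM in Krt8-high secretory cells of each library and 11.2 and 11 CPM in acinar cells. Elf5 was at 85.6 CPM (70.6 to 103) and 78.5 CPM (64.6 to 94.5) in ID. For Ehf and Elf3 the ID, Krt8-high secretory and acinar intervals were separate in both libraries, whereas for Elf5 in IR those of ID and Krt8-high secretory cells overlapped, as did those of Krt8-high secretory and acinar cells in both libraries.

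In ID over acinar cells, 4 of 5 members passed 2-fold in control and 3 of 5 in IR, beside 46.5% and 39% of all genes tested. Ehf was 6.52-fold (4.75 to 9.09) and 5.37-fold (3.99 to 7.32) higher, Etv1 6.25-fold and 5.31-fold, and Elf3 4.63-fold and 6.13-fold. Elf5 was 2.12-fold (1.63 to 2.77) higher in control and 1.44-fold (1.12 to 1.85) in IR, and it was 1.83-fold higher in control without abundant genes, which leaves 3 of 5 past 2-fold beside 39.4% of genes. Spdef, at 10 UMIs in ID of each library, showed ratios of 1.06 (0.444 to 2.34) and 0.799 (0.341 to 1.73).

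**Figure D2:**
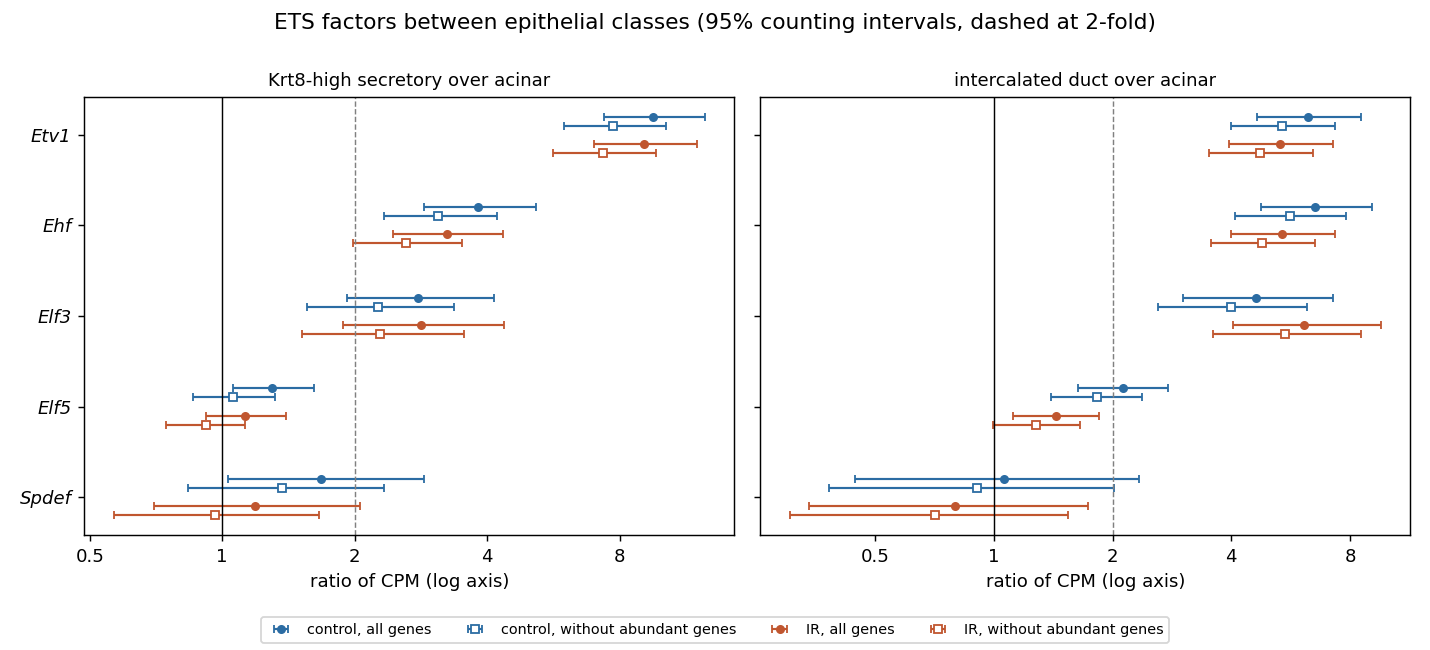
Ratio of CPM of 5 factors in Krt8-high secretory over acinar cells (left) and ID over acinar cells (right) on log axes, control in blue and IR in orange, filled for all genes and open without abundant genes, with 95% counting intervals. Etv1 is at 9.53 and 9.08 on the left and 6.25 and 5.31 on the right, while Spdef intervals without abundant genes include 1 in both panels.

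Set directly against each other, Krt8-high secretory cells were higher than ID for Etv1 and lower for the ESE factors, over a median log2 ratio of all genes of -0.31 in control and -0.15 in IR. Etv1 was 1.52-fold higher (1.3 to 1.8) in Krt8-high secretory cells of control and 1.71-fold higher (1.45 to 2.03) in IR, a higher ratio than for 91.3% and 92.8% of genes. Among cells of at least 10000 UMIs, however, Etv1 was at 169 CPM (159 to 180) and 161 CPM (148 to 175) in Krt8-high secretory cells against 139 CPM (118 to 162) and 156 CPM (132 to 183) in ID, and the intervals overlapped in both libraries. In cells under 10000 UMIs they were separate, at 801 CPM (701 to 912) and 600 CPM (524 to 685) in Krt8-high secretory cells. ID cells under 10000 UMIs were at 66.2 CPM (34.2 to 116) and 39.4 CPM (23.4 to 62.3) for Etv1. Ehf stood at ratios of 0.586 (0.487 to 0.707) and 0.603 (0.497 to 0.733), Elf3 at 0.599 (0.454 to 0.799) and 0.461 (0.35 to 0.609), and Elf5 at 0.614 (0.495 to 0.765) and 0.787 (0.627 to 0.994). The ESE ratios were higher than those of 24% to 27.3% of genes in control and 7.17% to 36% in IR. Spdef was on the side of Etv1, at 1.59 (0.822 to 3.45) and 1.49 (0.733 to 3.33), with both intervals including 1. In the class sums the 3 ESE factors were lower than in ID in both libraries, with every interval below 1. The directions were the same without abundant genes (Etv1 1.44 and 1.55). Elf3 in IR was the only one of the 5 members past 2-fold, beside 9.02% of all genes lower by 2-fold in IR. In control none was, beside 14.9%. In cells under 10000 UMIs, however, Elf3 was higher in Krt8-high secretory cells than in ID, with overlapping intervals. It stood at 83.9 and 78.1 CPM against 44.2 and 54.8 CPM. Ehf was there at 140 and 102 CPM against 215 and 105 CPM in ID, and Elf5 at 97.9 and 67.3 against 166 and 101 CPM.

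SD and MEC cells were too few and shallow to rank. In SD cells, Ehf had 8 control and 14 IR UMIs, 103 CPM (44.6 to 203) and 97.4 CPM (53.3 to 163), and its interval reached from below the Krt8-high secretory to above the ID level. Elf3 had 6 and 5 UMIs, Elf5 1 and 7, and Spdef 0 and 1. In MEC, Ehf had 4 control UMIs and 11 IR UMIs, 72.5 CPM (19.7 to 186) and 233 CPM (116 to 416), but the 11 UMIs came from 3 of 23 cells and 8 of them from 1 cell.

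The share of cells with a UMI depends on depth, and the classes differed widely in it. Median depth was 5311 and 5527.5 UMIs in acinar, 19434 and 4601 in Krt8-high secretory, 1813.5 and 5280 in ID and 2538.5 and 2174.5 in B cells, control then IR. An Etv1 UMI was found in 85.2% of control and 76.6% of IR Krt8-high secretory cells, 26.6% and 26.2% of ID cells, 14.2% and 12.6% of acinar cells, and 2.74% and 2.16% of B cells. After each cell was thinned to 1000 UMIs, with shallower cells left out, the Etv1 shares were 29% (23.1 to 35.4) and 31.2% (24.8 to 38.3) in Krt8-high secretory cells, 6.1% and 3.36% in ID, 4.16% and 3.91% in acinar and 1.22% and 0.866% in B cells. At this depth ID and acinar shares no longer differed beyond their intervals, which are 2.01 to 13.7 and 0.923 to 8.38 for ID and 2.34 to 6.76 and 2.15 to 6.47 for acinar cells.

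The comparison at 10000 UMIs was possible in deep cells only, 100 control and 82 IR acinar cells, 147 and 94 Krt8-high secretory cells and 29 and 33 ID cells. Etv1 was then found in 72.1% (64.1 to 79.2) and 77.7% (67.9 to 85.6) of Krt8-high secretory cells, 69% (49.2 to 84.7) and 48.5% (30.8 to 66.5) of ID cells and 8% (3.52 to 15.2) and 14.6% (7.8 to 24.2) of acinar cells. Ehf was in 62.1% and 72.7% of ID, 51% and 55.3% of Krt8-high secretory and 10% and 14.6% of acinar cells. Acinar cells stood apart for Etv1 and Ehf, whereas Elf5 was in 33% and 42.7% of acinar cells and 37.4% and 52.1% of Krt8-high secretory cells, with overlapping intervals. Elf3 was in 13 of 100 and 5 of 82 acinar cells, against 36 of 147 and 20 of 94 Krt8-high secretory cells. In each library 1 B cell reached this depth, so no background share can be set beside these values.

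**Figure D3:**
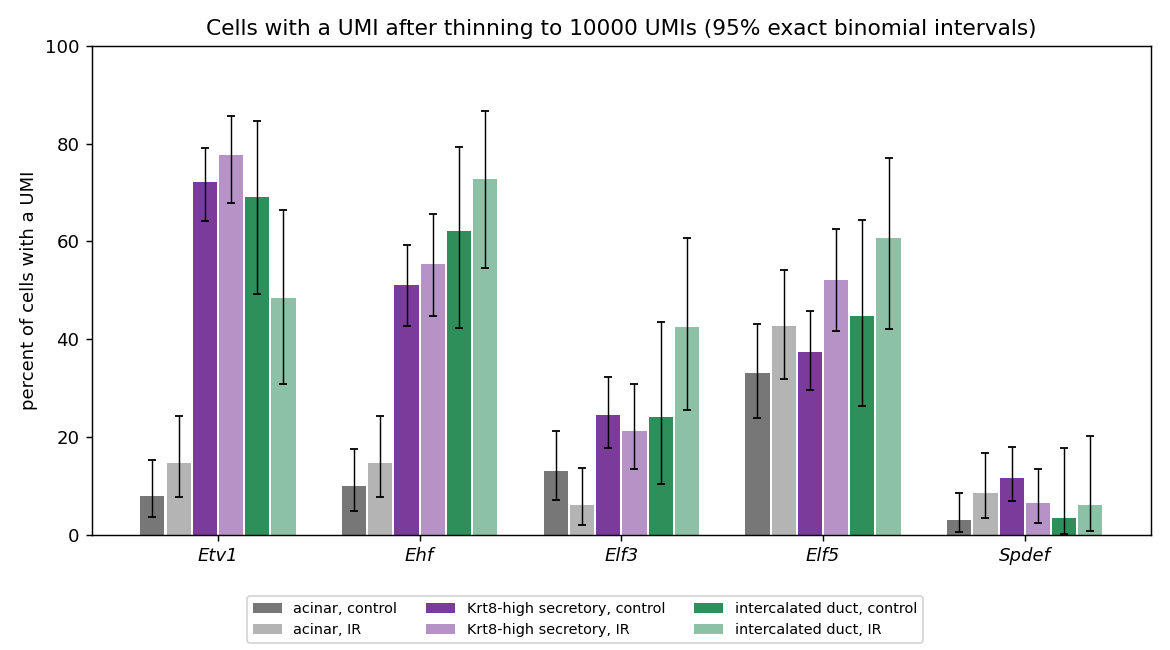
Percent of cells with at least 1 UMI of each of 5 factors after every cell was thinned to 10000 UMIs, by class and library, with 95% exact binomial intervals. For Etv1 the acinar bars are at 8% and 14.6%, and those of Krt8-high secretory cells at 72.1% and 77.7%.

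Deep cells differed in how many of 4 factors they showed. Of the cells thinned to 10000 UMIs, none of Etv1, Ehf, Elf3 and Elf5 was found in 48 of 100 control and 34 of 82 IR acinar cells, but in 13 of 147 and 3 of 94 Krt8-high secretory cells and 3 of 29 and 3 of 33 ID cells. All 4 were found together in 0 acinar cells of either library, 9 and 5 Krt8-high secretory cells and 1 and 4 ID cells. The mean number of the 4 found per cell was 0.64 and 0.78 in acinar, 1.85 and 2.06 in Krt8-high secretory and 2 and 2.24 in ID cells.

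The Krt8-high secretory class held cells of very unequal depth. A shallow part of 66 control and 97 IR cells had median depths of 1038 and 1027 UMIs, whereas a deep part of 162 and 122 cells had 39950.5 and 25215 UMIs. The shallow part was led by Gm20417, Gm26825, Gm26917, Helz2, Rn18s-rs5 and Mir22hg. It passed for 9 Krt8-high markers, and no other list, the acinar one included, reached the 3 markers needed. The shallow part made up 26.4% (21 to 32.3) of the class in control and 40.6% (34.3 to 47.1) in IR. Etv1 was at 1493 CPM (1300 to 1706) and 1295 CPM (1110 to 1502) in the shallow part, and at 167 CPM (157 to 177) and 162 CPM (149 to 175) in the deep part. The ratio of shallow over deep was 8.94 (7.68 to 10.4) in control and 8.01 (6.73 to 9.51) in IR for Etv1, 6.7 and 5.51 for Elf3, 2.74 and 2.85 for Ehf, and 2.57 and 1.23 for Elf5. Of the 5 members, 4 passed 2-fold higher in control and 3 in IR, beside 52.9% and 54.3% of all genes tested. On the scale without abundant genes 2 of 5 did so in each library, Etv1 and Elf3, at 6.25 and 5.59 for Etv1, beside 40.3% and 40.7% of genes.

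The deep part carried the class totals, with 95.3% of control and 93.2% of IR UMIs of the class. Etv1 in the deep part over acinar cells was 8.08-fold (6.24 to 10.6) higher in control and 7.24-fold (5.56 to 9.59) in IR, and in the shallow part over acinar cells it was 72.2-fold (54.1 to 97.7) and 58-fold (43.1 to 79) higher. The deep part fell into 2 groups, both with acinar markers. One, of 87 and 61 cells, passed for 9 acinar and 3 Krt8-high markers and had Etv1 at 156 CPM (143 to 170) and 178 CPM (158 to 199). The other, of 75 and 61 cells, passed for 8 acinar and 9 Krt8-high markers and had Etv1 at 180 CPM (165 to 197) and 148 CPM (131 to 166). Etv1 was thus well above the acinar level in each of these groups. The part of the depth and of the mixed markers in these levels was not tested.

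Depth also moved with level inside the other classes. In acinar cells Etv1 was at 35.8 CPM (25.7 to 48.5) in control and 29.4 CPM (20.9 to 40.2) in IR cells under 10000 UMIs, and at 11.1 CPM (6.76 to 17.1) and 15.6 CPM (9.79 to 23.7) in deeper cells. In ID the direction was the opposite, with 66.2 CPM (34.2 to 116) and 39.4 CPM (23.4 to 62.3) in shallower and 139 CPM (118 to 162) and 156 CPM (132 to 183) in deeper cells. Elf5 in ID was higher in the shallower cells, at 166 and 101 CPM against 73 and 68 CPM. Elf5 in acinar cells was alike at both depths, at 40.1 and 40.4 CPM in control and 52 and 56.8 CPM in IR.

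At 10 months after IR, no member differed from control by 1.5-fold within acinar, Krt8-high secretory or ID cells. The counts were 0 of 5 members in each of these classes, beside 28.4% of genes higher and 4.03% lower in acinar cells, 21.9% and 5.11% in Krt8-high secretory cells, and 16.8% and 12.3% in ID cells. In SD cells 1 member, Ehf, had enough UMIs, at a ratio of 0.944 (0.37 to 2.6), beside 9.49% of genes higher and 60.4% lower. The make-up of this class differed between libraries, with the 9 SD markers at 70156 CPM in control and 17244 in IR, the 7 ID markers at 12733 and 74712 CPM, the 10 acinar markers at 204779 and 397285 CPM and the 5 red blood cell markers at 32640 and 905 CPM, and the part of this in the Ehf ratio was not tested. The median log2 ratio of all genes was 0.31 in acinar, 0.25 in Krt8-high secretory, 0.09 in ID and -0.86 in SD cells over all genes, and 0.17, 0.10, 0.00 and -0.37 without abundant genes.

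Etv1 in Krt8-high secretory cells had an IR over control ratio of 1.03 (0.941 to 1.12) over all genes, 0.929 (0.85 to 1.02) without abundant genes and 0.837 (0.765 to 0.915) with TMM, so its direction depended on the scale. Over all genes its ratio was higher than that of 31.4% of the genes tested. As UMIs per 100 cells, a measure that keeps the depth of the cells, Etv1 fell from 520 to 333, while the median depth of the class fell from 19434 to 4601. Within the deep part the ratio was 0.967 (0.873 to 1.07), and within the shallow part 0.867 (0.706 to 1.06). Etv1 was at 1.08 (0.745 to 1.57) in acinar and 0.917 (0.738 to 1.14) in ID cells.

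Over the 4 epithelial classes summed, Etv1 had a ratio of 0.896 (0.827 to 0.97), with 1536 control and 1033 IR UMIs. Such a sum depends on the share of each class in the cells and on the UMIs per cell. Krt8-high secretory cells were 250 of 844 epithelial cells in control and 239 of 847 in IR. They held 6604982 of 10966643 epithelial UMIs in control and 3930692 of 8235398 in IR. The part of either in the ratio was not tested. Krt8-high secretory cells contributed 1300 of the control and 796 of the IR UMIs of Etv1.

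Elf5 had the largest ratio of the 5 members in acinar cells, 1.35 (1.06 to 1.73), and also in Krt8-high secretory cells, 1.18 (0.995 to 1.39). On the scale without abundant genes these were 1.23 (0.957 to 1.57) and 1.06 (0.898 to 1.26), with both intervals including 1, and with TMM 1.06 and 0.957. When the acinar class was restricted to cells with at least 500 genes, a choice made after seeing the data, Elf5 reached 1.55 (1.16 to 2.07) and Ehf 1.51 (0.938 to 2.47), so 2 of 5 members passed 1.5-fold there. In the whole acinar class 28.4% of all genes were higher by 1.5-fold. The share among the restricted cells is not given, so this count cannot be set against it. In ID cells Elf5 stood at 0.917 (0.7 to 1.2).

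Ehf was at 1.05 (0.905 to 1.22) in Krt8-high secretory and 1.02 (0.819 to 1.28) in ID cells, and 1.24 (0.846 to 1.83) in acinar cells. Elf3 was at 1 (0.793 to 1.26) in Krt8-high secretory, 0.981 (0.578 to 1.66) in acinar and 1.3 (0.944 to 1.8) in ID cells. Spdef, from 79 and 41 UMIs in Krt8-high secretory cells, was at 0.872 (0.583 to 1.29) there, 1.23 (0.658 to 2.33) in acinar and 0.934 (0.349 to 2.5) in ID cells. A 1.5-fold difference lay inside the acinar intervals of Etv1, Ehf, Elf3, Elf5 and Spdef, so at this depth it was not resolved there for any member. In Krt8-high secretory cells the intervals of all 5 members over all genes ended below 1.5, but that of Spdef reached 0.583, so a decrease by 1.5-fold was not resolved for it. In ID cells a 1.5-fold difference lay inside the intervals of Elf3 and Spdef, so it was not resolved for them.

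**Figure D4:**
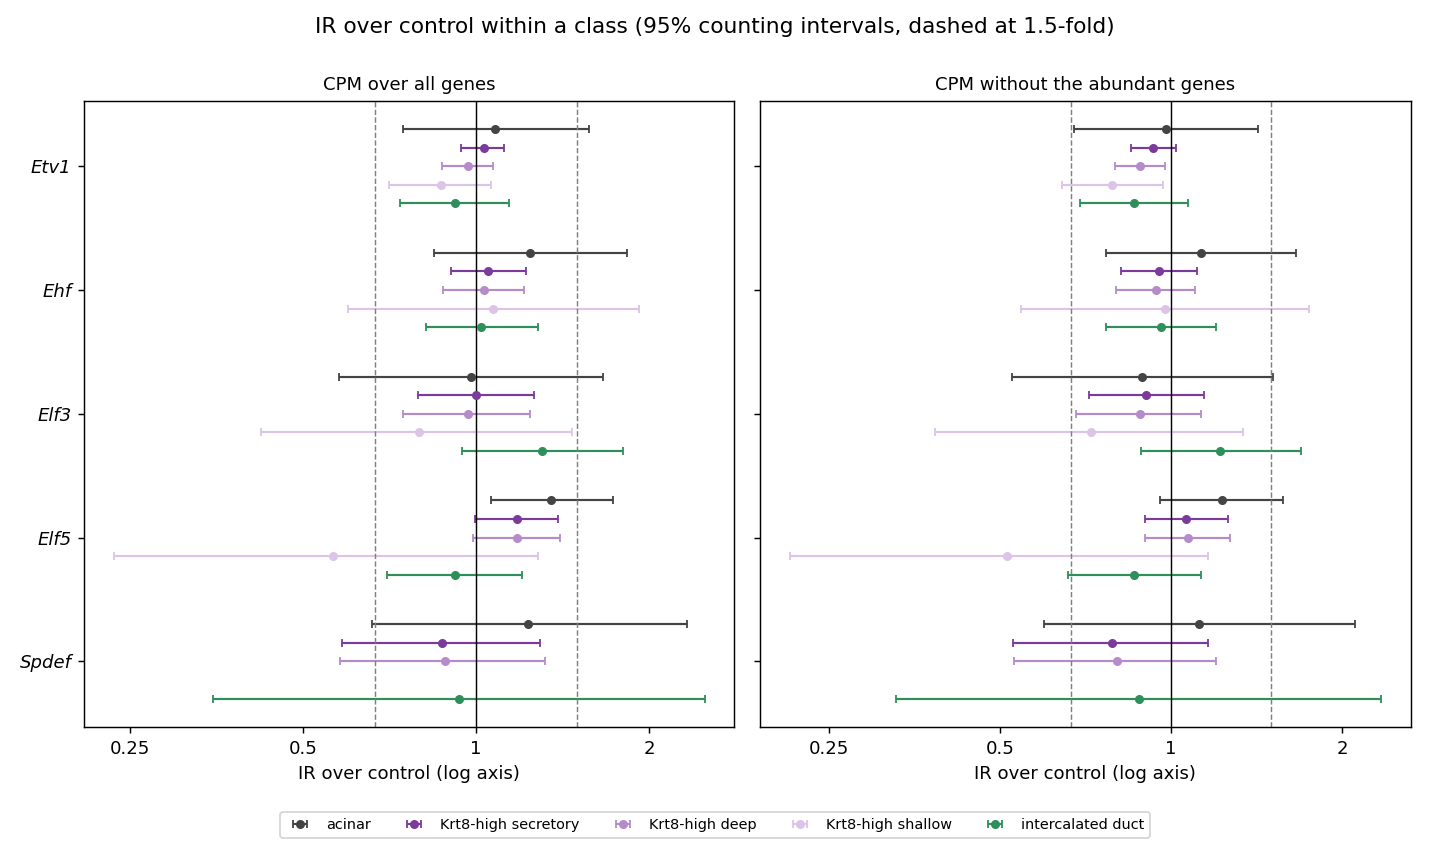
IR over control ratio of CPM for 5 factors within acinar, Krt8-high secretory (whole, deep and shallow part) and ID cells on log axes, over all genes (left) and without abundant genes (right), with 95% counting intervals and dashed lines at 1.5-fold either way. Points lie between the dashed lines except Elf5 in the shallow part, at 0.564 and 0.513. Spdef in the shallow part had too few UMIs to be drawn.

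Elf5 in the shallow part was the 1 of 4 members past 1.5-fold there, lower in IR, beside 10.7% of all genes (13.8% without abundant genes). It rested on 19 control and 10 IR UMIs, 132 CPM (79.4 to 206) and 74.4 CPM (35.7 to 137), a ratio of 0.564 (0.234 to 1.28). The intervals of both libraries overlapped.

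Outside the epithelium, Ehf was also carried by dendritic cells. A group of 26 control and 47 IR dendritic cells is called Ccl22+ from its summed Ccl22, not cell by cell. Fscn1 was also high in its sum. They encode a chemokine and an actin-bundling protein known from mature dendritic cells. Siglech, a plasmacytoid marker, was at 121 and 175 CPM in it, against 1867 and 1930 CPM in the other group. Ehf had 44 UMIs in the Ccl22+ group of each library, 254 CPM (185 to 341) and 142 CPM (104 to 191). In the Siglech group Ehf had 0 UMIs in 18 control cells, which allows up to 3 UMIs, and 5 UMIs in 41 IR cells. B cells were at 4.3 CPM (2.06 to 7.91) and 9.65 CPM (5.89 to 14.9). The Ccl22+ cells thus stood 59.1-fold (29.3 to 132) above B cells in control and 14.8-fold (8.52 to 26.4) in IR, where 13.4% and 15.7% of all genes tested were higher by 2-fold.

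Other epithelial genes were low in these dendritic cells. They had 2 and 0 Elf3 UMIs, 1 and 1 Elf5 UMIs and 0 and 1 Etv1 UMIs. Krt8 was at 34.7 and 9.71 CPM, against 39.6 and 56.9 CPM in B cells, and Bpifa2 at 16921 and 12846 CPM, against 38399 and 39561 CPM in B cells. Epcam, an epithelial adhesion molecule, had 10 UMIs in each library, 57.8 and 32.4 CPM against 28.4 and 39.1 CPM in B cells, which is higher than B cells in control and lower in IR. An Ehf UMI was found in 13 of 26 control cells, with at most 10 in 1 cell, and in 18 of 47 IR cells, with at most 6 in 1 cell. As a share this was 50% (29.9 to 70.1) and 38.3% (24.5 to 53.6), while B cells, with medians of 2538.5 and 2174.5 UMIs against 5693.5 and 5419, held one in 1.19% and 1.8%. Between libraries, Ehf in the Ccl22+ cells was lower in IR, at a ratio of 0.56 (0.36 to 0.871) over all genes and 0.555 without abundant genes. That passed the 1.5-fold rule, as did 9.73% of all genes in the lower direction, and 10.1% without abundant genes. The make-up of the dendritic class as a whole differed between libraries. Its 6 B cell markers summed to 7700 CPM in control and 677 in IR, and its 5 plasma cell markers to 1644 and 347 CPM. Among the Ccl22+ cells 15.4% in control and 8.51% in IR had doublet scores in the highest 6%. The part of this in the Ehf ratio was not tested.

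Etv5, a PEA3 factor, came mostly from non-epithelial cells. It had 12 control and 4 IR UMIs in endothelial cells, 37.1 CPM (19.2 to 64.8) and 21.2 CPM (5.77 to 54.3). Among classes with at least 5 Etv5 UMIs, its level without abundant genes over both libraries was highest in macrophages, at 69.1 CPM from 10 UMIs. Endothelial cells were next, at 33.8 CPM. B cells had 10 and 4 UMIs, and T cells 2 and 6. Stromal cells had 7 and 0 UMIs, macrophages 3 and 7, and a cluster led by S100a8 and S100a9 had 9 and 3. In acinar, ID and SD cells it had 0 UMIs in each library. At the acinar depth a count of 0 put the upper limit of the interval at 1.35 CPM in IR, and the limit in control was lower. Etv4 gave the same acinar limits, and its 5 IR UMIs were spread over MEC (1), B cells (2) and T cells (2).

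Among the other ETS family genes, those of blood and vessel predominated. Of 20 further family members listed, 17 had at least 20 UMIs, and 15 of these were higher in immune than in epithelial cells in CPM without abundant genes, 13 of them by 2-fold. On this scale 47.4% of all genes in control and 50.1% in IR were 2-fold higher in immune cells. None had its highest level in acinar, Krt8-high secretory, ID or SD cells. Ets2 was at 203 CPM in MEC, from 16 UMIs, and at 199 CPM in endothelial cells, so its highest class was not resolved. Ets1, known from lymphocytes, was at 729 CPM in immune and 26.5 CPM in epithelial cells, and Spi1, the myeloid factor PU.1, at 62.8 and 1.71 CPM. Ets2 was at 52.1 CPM in epithelial and 49.4 CPM in immune cells, and Erg at 0.143 and 0.0612 CPM, its epithelial value being 1 UMI. On the same scale the 5 epithelial members were at 367 against 9.37 CPM (Etv1), 171 against 12.2 (Ehf), 156 against 7.1 (Elf5), 80.8 against 2.02 (Elf3) and 26.5 against 0.735 (Spdef).

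As a ratio within a library and without abundant genes, epithelial over immune was 42 and 35.4 for Etv1, 30.7 and 49.8 for Elf3, 26.2 and 20.4 for Elf5, 13.3 and 14.4 for Ehf and 45.9 and 29.9 for Spdef. Over all genes these 5 of the 6 members tested passed 2-fold higher, beside 9.52% of genes in control and 8.29% in IR. Etv5 was the sixth, on the immune side with 74.6% and 76.3% of genes, from 25 immune UMIs in each library.

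**Figure D5:**
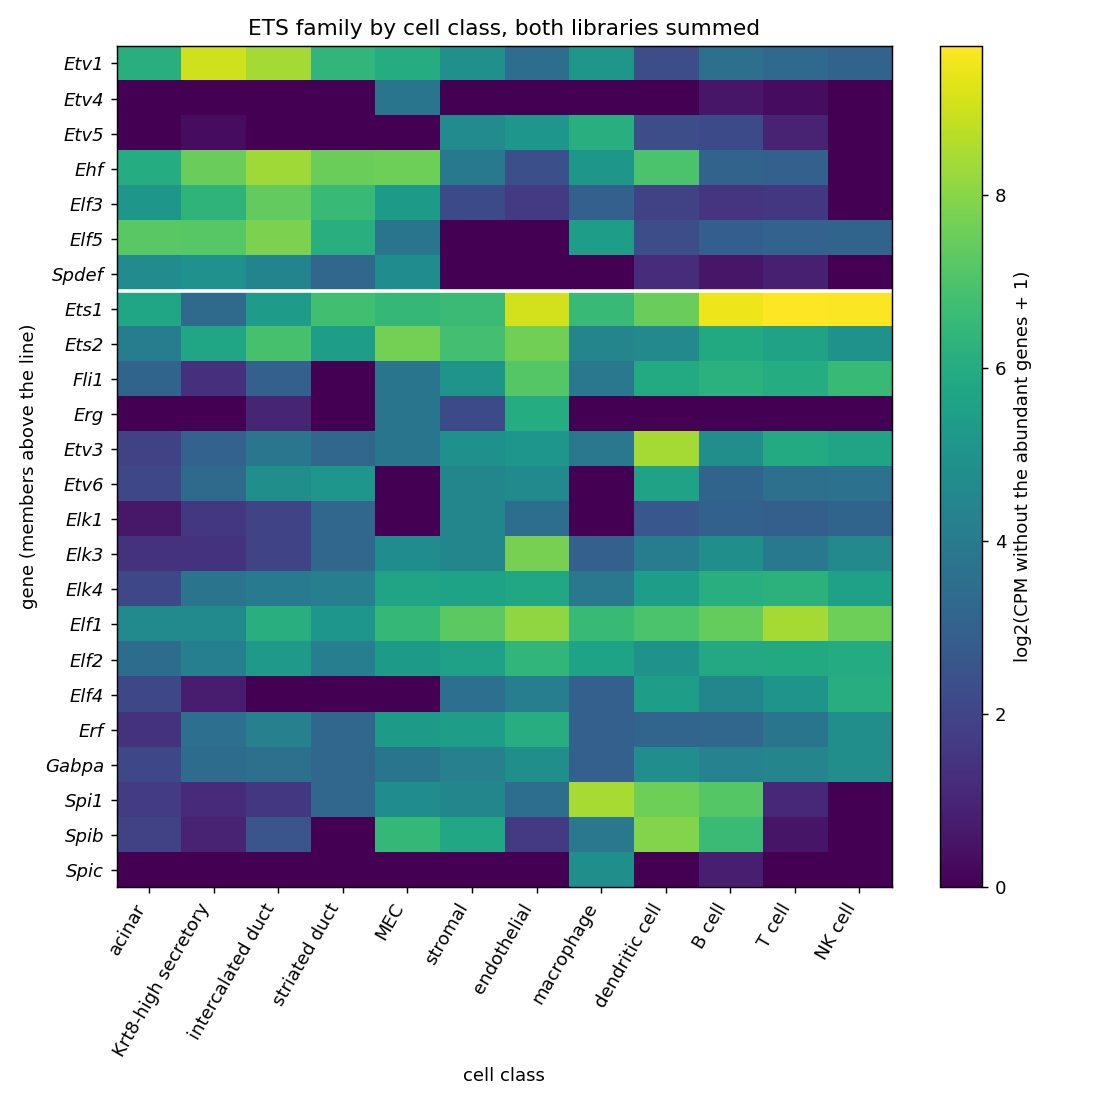
Level of the 7 factors (above the white line) and of the other ETS genes with at least 20 UMIs in 12 cell classes, both libraries summed, as log2 of CPM without abundant genes plus 1. Etv1, Ehf, Elf3, Elf5 and Spdef are bright on the epithelial side and Ets1 on the lymphocyte side, and Ehf has a bright cell for dendritic cells.

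Genes of FGF signalling, which lies upstream of the PEA3 group in other branching epithelia, were sparsely detected. Of 15 receptors and ERK feedback genes, 6 had enough UMIs for Krt8-high secretory over acinar cells in each library, and 4 passed 2-fold higher in control and 6 in IR, none lower. Dusp5 and Dusp6, phosphatases that act on ERK, were 3.24-fold (2.37 to 4.51) and 3.62-fold (1.93 to 7.5) higher in control, and 3.3-fold and 2.82-fold in IR. Fgfr2, the receptor for FGF7 and FGF10, had 58 against 9 UMIs in control, 2.88-fold (1.42 to 6.61), and 24 against 3 in IR, 5.57-fold (1.69 to 28.9). The median ratio of the list was 3.06 and 3.62, beside the 42.5% and 37.9% of all genes past 2-fold given above. None of the 4 FGF ligands listed had enough UMIs in these classes. Fgf10 was found in stromal cells, with 21 control and 11 IR UMIs, 101 CPM (62.5 to 154) and 121 CPM (60.5 to 217), and Fgf7 there with 12 and 8.

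Between IR and control Krt8-high secretory cells, 5 of 8 genes of the FGF and ERK list were higher by 1.5-fold and none lower, with a median ratio of 1.52, beside 21.9% of all genes higher. These were Dusp5 at 1.51 (1.29 to 1.77), Dusp6 at 1.6 (1.18 to 2.19), Dusp4 at 2.1 (0.918 to 4.91), Spry1 at 1.79 (0.848 to 3.78) and Spred1 at 1.53 (0.791 to 2.93). Without abundant genes 2 of the 8 were past 1.5-fold higher, Spry1 and Dusp4, beside 15.1% of all genes. Fgfr2 passed 1.5-fold lower on that scale, at 0.628 (0.373 to 1.03), beside 8.01% of all genes lower. Etv1 in the same cells was at 1.03 and 0.929 on these scales.

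Genes that remove PEA3 proteins were measured as mRNA only. Of 7 names listed, 6 were in the files and 4 had enough UMIs. Trib1, an adaptor of the COP1 ligase, was 6.93-fold (3.87 to 13.7) higher in control and 8.17-fold (4.53 to 16.2) higher in IR Krt8-high secretory than acinar cells. Rfwd2, the earlier symbol of Cop1, was 2.46-fold (1.14 to 6.05) and 3.48-fold (1.74 to 7.69) higher, and all 4 passed 2-fold in control (3 of 4 without abundant genes) and 3 of 4 in IR, where Cul4a was at 1 (0.506 to 2.03). Of all genes 42.5% passed in control (33.9% without abundant genes) and 37.9% in IR. Between IR and control, Rfwd2 was higher by 1.91-fold in Krt8-high secretory cells, with an interval above 1, the 1 of 4 past 1.5-fold, beside 21.9% of all genes.

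Of the ErbB list, 3 of 10 genes had enough UMIs in control for Krt8-high secretory over acinar cells, and all 3 were higher, Erbb2 at 4.77 (1.49 to 24.3, from 3 acinar UMIs), Erbb3 at 4.4 (2.42 to 8.75) and Hbegf at 6.26 (2.56 to 19.9), beside 42.5% of all genes. Erbb3 was itself a marker used to name the class. Other ETS genes passed 2-fold higher in 5 of 7 cases, beside the same 42.5%, with Ets2 at 3.1 (1.86 to 5.5), and Ets1 was lower at 0.177 (0.0945 to 0.316), beside 1.29% of all genes lower. The 9 T cell markers were also lower, at 9.08 CPM in Krt8-high secretory against 57.9 CPM in acinar cells of control. The part of lymphocyte RNA in the Ets1 ratio was not tested. In IR over control Krt8-high secretory cells, 4 of 9 other ETS genes were higher by 1.5-fold (3 of 9 without abundant genes), beside 21.9% of all genes (15.1%), among them Etv6 at 3.23 (1.59 to 6.88) from 13 and 25 UMIs. Ets1, Elf1 and Gabpa were the others over all genes. The T cell markers in this class were at 9.08 CPM in control and 30.3 CPM in IR. The part of this in these ratios was not tested.

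The genes most like each member were sought over 30 profiles, each the sum of 1 class in 1 library, as Pearson r of log2(CPM without abundant genes + 1) among 8347 genes. The profiles share their library and the depth of their class, and r is given as a description. Krt18 and Nupr1 were also among the markers that named the classes. For Etv1 these were Slc12a2, the basolateral chloride cotransporter of secretory cells (r = 0.936), Krt18 (0.894) and Nupr1 (0.892). For Elf3 they were Rab17 (0.913), Krt18 (0.870) and Echdc2 (0.870), and for Ehf Dcxr (0.818), Spint2 (0.812) and Epcam (0.811). For Elf5 they were Lrrc26 (0.898), Gjb1 (0.891) and Scgb2b27 (0.882), and for Spdef Gm5154 (0.893), Alg5 (0.873) and Agr2 (0.869). Among the members themselves, Elf3 and Spdef were the most alike (0.804) and Ehf and Elf5, the neighbours on the chromosome, the least (0.586).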

How the data were processed

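Single-cell RNA-seq libraries of PG were made on the 10x Chromium system, 1 from control and 1 from IR mice, each with cells of 2 mice pooled. The deposited files hold raw UMI counts per gene and barcode, made by the authors with Cell Ranger 3.0.1 on mm10; Seurat 3 is also named in the submitters' processing notes. How empty droplets were removed and whether strand was used in counting are not given in the sources used here.

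Cells with at least 200 genes and at most 5% mitochondrial UMIs were kept. Libraries were integrated by anchors in Seurat 5.3.0 (R 4.3.3; 2000 variable genes, 30 principal components, resolution 0.3; 20 components and resolution 0.8 for parts of a class). The 7 members were left out of the clustering genes. A class was named from at least 3 markers, so classes may differ from those of the study. UMIs were summed per class and library. Depth was 19068309 control and 20348028 IR UMIs in kept cells. Ratios of CPM have exact conditional binomial intervals, levels Poisson intervals and shares exact (Clopper-Pearson) binomial intervals, all at 95% and for counting error only. A ratio was read where both groups held at least 20 UMIs together, against size rules of 1.5-fold between libraries and 2-fold between classes. No test was possible with 1 library per condition.

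TMM factors came from edgeR 4.0.16, doublet scores from Scrublet in scanpy 1.11.5, and intervals from scipy 1.17.1 (Python 3.11.15). The scripts were tested on simulated data. Genes named are the 7 members, the genes of pathway lists, the class markers and, for each member with at least 200 UMIs, the 3 genes with the most similar profile. The members and lists were chosen with earlier results of these data known. Alternatives changed the scaling, filters, clustering, thinning and size rules; the restriction to cells of at least 500 genes in the classes already formed, and the separate use of the deep and shallow parts, were chosen after seeing the data. Protein sequences, and promoters of Ehf, Etv4 and Etv5, are not shown.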

Additional observations from a re-analysis of the deposited data

Results flagged for a closer look

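Barcodes over the 5% mitochondrial limit, 1260 in control and 1858 in IR, were left out of the main comparisons, and 6 of the 7 factors had UMIs in them. Etv1 stood there at 307 CPM without abundant genes in control (363 UMIs) and 161 in IR (301 UMIs), against 144 and 80 over all kept cells. Ehf was at 106 and 79 CPM, against 68 and 46.8. Elf3 was at 54.9 and 30.4 CPM, against 29.9 and 19.2. Elf5 was at 48.2 and 34.7 CPM, against 55.5 and 42.1. Spdef was at 9.29 and 6.94 CPM from 11 and 13 UMIs, and Etv5 at 5.07 and 6.94 CPM from 6 and 13 UMIs. Only those up to 10% were assigned to classes, in the alternative with that limit. The values here are over all classes, and the part of the mix of cells in them was not tested. Barcodes under 200 genes, 912 in control and 649 in IR with 1624397 and 834918 UMIs, were also left out. Abundant genes made up 88.7% and 84.4% of these UMIs, against 69.7% and 66.6% in acinar cells. Etv1 was at 153 and 169 CPM without abundant genes in them, from 28 and 22 UMIs. Their part in the acinar levels was not tested.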

How the results depend on the processing

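No paired analysis was possible because each condition had 1 library. The Etv1 ratio of IR over control in Krt8-high secretory cells lay on either side of 1, at 1.03 over all genes, 0.929 without abundant genes, 0.837 with TMM and 0.867 in the shallow part alone. The Etv1 ratio of Krt8-high secretory over acinar cells in control, 9.53, was 6.25 with TMM and 72.2 with the shallow part alone. The number of members past 1.5-fold between IR and control, 0 in each class, became 1 in acinar cells (Elf5) and 1 in ID (Elf3) with a size rule below 1.5-fold, 2 in acinar cells of at least 500 genes, and 1 in SD (Ehf, 1.57 (0.616 to 4.33)) with TMM. Shares of all genes past the rule are not given for these alternatives, so these counts are not read as results about the members. Over the alternatives, 280 levels, 136 ratios of IR over control and 47 ratios of Krt8-high secretory over acinar cells stayed within their counting interval, while 14, 7 and 8 moved beyond it. Of the shares, 69 stayed and 43 moved, 31 of them without thinning and 12 at 500 UMIs. Clustering again at 500 genes formed no Krt8-high secretory, ID or SD class, so those values could not be had. The cluster named acinar there, of 345 control and 369 IR cells, passed for 10 acinar and 9 Krt8-high markers. An unnamed cluster of 98 and 157 cells passed for 9 Krt8-high, 7 ID and 5 SD markers. The division of Krt8-high secretory from acinar cells, on which the Etv1 ratio of 9.53 rests, was thus not formed under that filter. The depth limits Etv4, Etv5 and Spdef and all SD and MEC values most.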
